A study of Mus musculus with 5 samples.

Results

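The complement genes examined here were C1qa, C1qb, C1qc, C3, Cfb, Cfp, C3ar1, C5ar1 and C5ar2. They were picked by symbol, and all 9 had a row of their own among the 24419 gene rows of the deposited table. The samples were mouse bone marrow-derived macrophages (BMMs) of the C57BL/6 strain, grown for 5 days in 50 ng/ml M-CSF and stimulated with 100 ng/ml LPS. After LPS, 2 samples received PBS and 3 received 100 ng/ml recombinant semaphorin 3G (Sema3G), an Fc-tagged protein purified from transfected cells, for 18 h. All 5 samples therefore carried LPS, and the table has no sample without it. Nothing in the labels says whether the samples of a group came from separate mice or cultures, so the p-values measure only the spread between these samples, which may be technical. The 3′ ends of polyadenylated RNAs were sequenced, with a random tag (unique molecular identifier, UMI) added during library preparation so that PCR copies count once, and values are given in CPM, the UMIs of a gene scaled to a common library total. Because the libraries cover the 3′ end of an RNA rather than its whole length, CPM does not grow with the length of the RNA, and levels can be set side by side between genes on this scale.

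Complement is a cascade of serum proteins that tags microbes, debris and immune complexes for uptake. C1q is its recognition molecule in the classical pathway and is built from A, B and C chains, each with a collagen-like stalk and a globular head. It is unusual among complement proteins in being made mainly by macrophages and related myeloid cells rather than by the liver. C3 is the protein at which all pathways meet. Factor B (Cfb) and properdin (Cfp) build and stabilise the enzyme that cleaves C3 in the alternative pathway, and C3 and Cfb are known as genes that LPS induces in macrophages. The small fragments C3a and C5a released by the cascade act on the receptors C3ar1, C5ar1 and C5ar2.

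The libraries held between 1283029 and 1487137 UMIs on listed genes. These made up 77.6% and 75.6% of the library totals with PBS and between 65.9% and 71.3% with Sema3G. Rn45s, the precursor of ribosomal RNA, held 1.01% and 3.19% with PBS against 6.31% to 7.88% with Sema3G. Both quantities enter the CPM of every gene, and the median log2 fold change over the 10088 genes tested was -0.22. Changes of the complement genes are therefore also given relative to that median. With CPM over listed genes other than Rn45s, which leaves both quantities out, the median of the 9 complement genes was -0.25. That of all genes was then 0.04. Beyond such rescaling, how much these quantities contribute was not tested. All 11 macrophage markers looked up, Csf1r, Adgre1, Cd68 and Apoe among them, had a mean of at least 1 CPM. The lowest was Mertk, at 0 to 2.78 CPM. Their summed levels were 15033 to 24983 CPM with PBS and 13628 to 18514 CPM with Sema3G. The sums for other cells were far lower. Neutrophil markers summed to 103 to 169 CPM, nearly all of it S100a8 (102 to 165 CPM), with Ngp and Elane at 0. Stromal markers summed to 10.7 to 28.0 CPM, with Lum at 0. Lymphoid markers summed to at most 9.89 CPM, where Cd4 was at 2.30 to 9.89 CPM and Ms4a1 and Cd3e were at 0. Dendritic cell markers reached at most 2.26 CPM, with Flt3 and Xcr1 at 0, and those of mast cells and basophils at most 0.461 CPM. In bulk RNA, fewer cells of a type and less RNA per cell cannot be told apart.

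The 3 C1q genes lie side by side on the minus strand of chromosome 4 in GRCm38, the assembly also called mm10. In the GENCODE M21 annotation, C1qb spans 136880129 to 136886187, C1qc spans 136889804 to 136893065 and C1qa spans 136895917 to 136898803. The gap between C1qb and C1qc is 3616 bp and that between C1qc and C1qa is 2851 bp, so the whole cluster covers 18675 bp. No other annotated gene overlaps any of them. C5ar2 and C5ar1 are neighbours as well, 2588 bp apart on the minus strand of chromosome 7. Cfb, on chromosome 17 from 34856374 to 34862518, is overlapped on its own strand by Gm20547 and Mir6972. A molecule there cannot be assigned to a single gene by position alone, so the level of Cfb is uncertain. C5ar2 likewise shares its strand with Gm26473, and C3 with Mir6978.

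The RefSeq promoter table (GRCm38.p6) held windows for 7 of the 9 genes. Those of C1qb and C1qc are shown because these neighbours had nearly the same log2 fold change over all 5 libraries (-0.57 and -0.58). Without PBS replicate 1 the values were less alike, at -0.32 and -0.16. That of C3 is shown because its levels followed another course across the libraries. Each is written 5′ to 3′ on the minus strand, covers bases before the RefSeq transcription start that lie in no annotated exon, and has matches to the searched motifs in capitals.
C1qb, chr4:136886201-136886450: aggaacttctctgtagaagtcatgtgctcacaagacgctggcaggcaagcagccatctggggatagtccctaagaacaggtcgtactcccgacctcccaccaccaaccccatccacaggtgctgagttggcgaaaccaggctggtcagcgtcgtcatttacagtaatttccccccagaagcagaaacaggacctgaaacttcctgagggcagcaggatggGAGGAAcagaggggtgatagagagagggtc
C1qc, chr4:136893066-136893164: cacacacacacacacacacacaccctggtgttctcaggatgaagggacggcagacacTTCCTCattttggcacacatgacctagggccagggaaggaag
C3, chr17:57228137-57228386: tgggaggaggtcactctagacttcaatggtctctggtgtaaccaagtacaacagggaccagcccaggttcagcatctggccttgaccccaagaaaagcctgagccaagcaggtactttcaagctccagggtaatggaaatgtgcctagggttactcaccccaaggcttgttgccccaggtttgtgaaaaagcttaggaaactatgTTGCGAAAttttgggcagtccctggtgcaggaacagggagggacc

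These and other motifs were searched on both strands of the 250 bases before each start. GAGGAA, the core that the myeloid factor PU.1 binds, occurred in C1qb 30 to 25 bases before the start, in C1qc 193 to 188 bases before it on the opposite strand, and in 1 of the 2 windows of C5ar2. This motif is found in 23.3% of all 32851 promoters of the table. TTGCNNAA, a form of the C/EBP site, occurred in C3 45 to 38 bases before the start and in C5ar2, against 9.56% of all promoters. GAAANNGAA, an interferon regulatory factor form, was found in C5ar1 (7.13% of all promoters), and TATAAA in C3ar1 (12.4%). TGCTGAC, part of the site of MAF factors, and GGANTTTCC, an NF-kB form, had no match in these 7 genes and are held by 3.81% and 1.07% of all promoters. No matches overlapped within a window. A match is a stretch of letters and not a measured binding site.

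The comparison of Sema3G with PBS asks how the ligand altered LPS-stimulated BMMs. None of the 9 complement genes passed an adjusted p of 0.05 in either direction, in limma on log2(CPM + 1) with Benjamini-Hochberg adjustment over all genes tested. All 9 passed the filter of a mean of at least 1 CPM. Across all genes tested, 1.59% were called higher and 0.218% lower, that is 160 and 22 genes, which became 348 and 3 after rescaling by TMM factors (edgeR's adjustment of library totals). C1qa, C1qb, C1qc, C3 and Cfb, 5 of the 9, had an unadjusted p under 0.05 and a lower level with Sema3G, beside 689 higher (6.83%) and 1436 lower genes (14.2%) of the 10088 tested. The quasi-likelihood test of edgeR, run on UMI counts recovered from the CPM, called none of the 9 either, while it called 4.67% of 8207 genes. It had 1 of the 9 (C1qa, lower) at an unadjusted p under 0.05, beside 13.6% higher and 4.19% lower over all genes. DESeq2 called none, while it called 230 higher genes and 1 lower gene, 2.77% of 8328. It placed none of the 9 at an unadjusted p under 0.05, beside 754 higher and 171 lower genes over all. The fold change was below 0 for 8 genes and above 0 for C3ar1, also after either rescaling (by TMM factors, or CPM over listed genes other than Rn45s). Of all genes tested, 67.5% were below 0, and 52.2% and 46.0% after these rescalings. The median log2 fold change of the 9 was -0.50, beside -0.22 for all genes tested. After rescaling by TMM factors these medians were -0.30 and -0.02. They were -0.27 and -0.13 without PBS replicate 1, and -0.81 and -0.30 without PBS replicate 2.

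**Figure D1:**
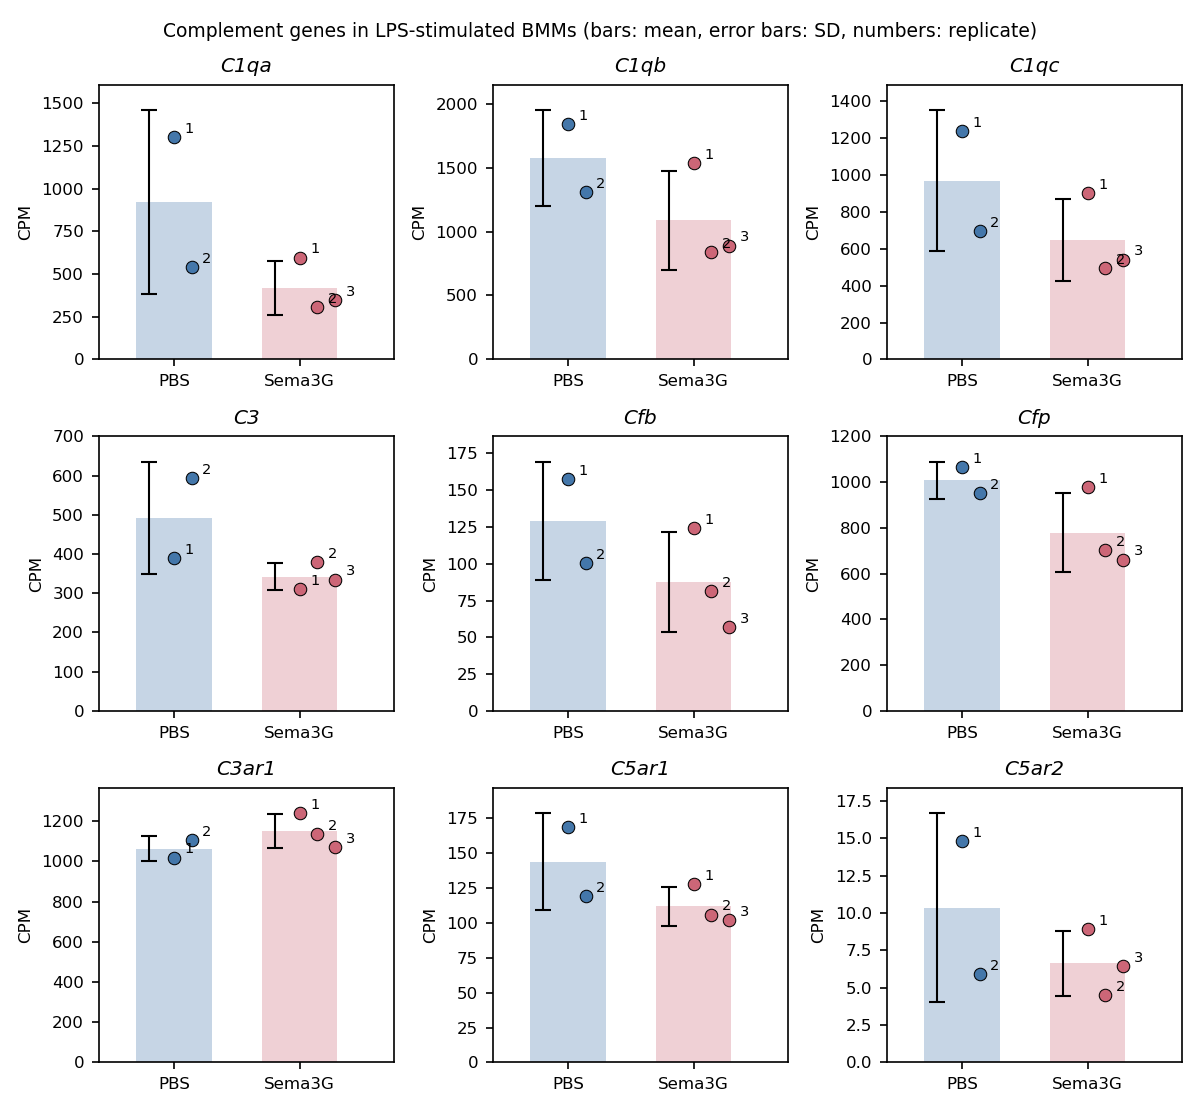
CPM of the 9 complement genes in each library, with PBS in blue and Sema3G in red. Bars are group means from a zero baseline, error bars are SD (n = 2 and n = 3), and numbers mark the replicate. In all panels but those of C3 and C3ar1, Sema3G replicate 1 lies between the PBS libraries.

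The C1q genes were among the most abundant RNAs of these cells. C1qb ranked 43rd by mean level among the genes tested, C1qc ranked 74th and C1qa ranked 100th. C1qa, the A chain gene, was at 1302 and 541 CPM with PBS and at 596, 305 and 348 CPM with Sema3G. The groups overlapped, because Sema3G replicate 1 lay above PBS replicate 2, and the highest value by far was that of PBS replicate 1. The mean of the PBS group was 921 ± 538 CPM (SD, n = 2), and that of the Sema3G group 416 ± 157 CPM (SD, n = 3). The log2 fold change was -1.07 (standard error 0.31, 95% interval -1.72 to -0.43, limma, adjusted p = 0.0820), or -0.85 against the all-gene median. Of the genes tested, 1.27% had a lower fold change than C1qa, and 25.9% did without PBS replicate 1.

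The value of C1qa rested on single libraries. Its log2 fold change was -1.71 without PBS replicate 2 and -0.44 without PBS replicate 1. Without Sema3G replicate 1 it was -1.36 (limma, adjusted p = 0.0171), past the limit. That fit called 303 higher and 553 lower genes, against 160 and 22 with all libraries. Of the Sema3G group it kept only replicates 2 and 3, the most similar of all library pairs. The PBS libraries differed from each other by 2.41-fold in CPM of C1qa, with a 95% exact binomial interval of 2.24 to 2.59 that covers counting error only. With edgeR's quasi-likelihood test on counts scaled by TMM factors, the log2 fold change of C1qa was -0.89 (adjusted p = 0.1003).

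C1qb, the B chain gene, was at 1840 and 1310.0 CPM with PBS and at 1536, 842 and 890.6 CPM with Sema3G. C1qc, the C chain gene, was at 1239 and 698 CPM with PBS and at 900.2, 496 and 541 CPM with Sema3G. In both, the order of the libraries was PBS replicate 1, Sema3G replicate 1, PBS replicate 2, Sema3G replicate 3 and Sema3G replicate 2, so the groups overlapped. The log2 fold change was -0.57 for C1qb (standard error 0.26, 95% interval -1.12 to -0.01, limma, adjusted p = 0.229) and -0.58 for C1qc (standard error 0.27, 95% interval -1.14 to -0.01, limma, adjusted p = 0.227). Against the all-gene median these were -0.34 and -0.35. Without Sema3G replicate 1 both passed the limit, at -0.84 each (limma, adjusted p = 0.0237 and 0.0394), in the fit with 303 higher and 553 lower calls. Without PBS replicate 1, C1qb was at -0.32 and C1qc at -0.16.

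Sema3G replicates 2 and 3 lay close together for all C1q chains. Their folds in CPM, replicate 2 over replicate 3, were 0.875 for C1qa, 0.945 for C1qb and 0.916 for C1qc. The summed level of the 3 chains was 4382 and 2548 CPM with PBS and 3032, 1642 and 1780 CPM with Sema3G. The summed macrophage markers had the same order of libraries, at 24983 and 15033 CPM with PBS and 18514, 13628 and 14164 CPM with Sema3G. One of those markers, Apoe, which encodes apolipoprotein E, ranged from 3326 to 11613 CPM. The other 10 markers summed to 13371 and 10577 CPM with PBS and to 9707, 10302 and 10082 CPM with Sema3G, so the shared order was lost without Apoe. The part of these markers in the C1q result was not tested.

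The chains of C1q are joined in equal numbers in the protein, and their RNAs can be compared within a library, where the library total cancels. C1qa made up 29.7% of the UMIs of the 3 genes in PBS replicate 1 (95% exact Clopper-Pearson interval 28.7% to 30.7%). In PBS replicate 2 it made up 21.2% (20.1% to 22.4%). In the Sema3G libraries it made up 19.7% (18.6% to 20.7%), 18.6% (17.3% to 19.9%) and 19.6% (18.3% to 20.8%). Each Sema3G library thus had a lower share of C1qa than either PBS library, but PBS replicate 2 was nearer to the Sema3G libraries than to PBS replicate 1, and its interval overlapped that of Sema3G replicates 1 and 3. The group means were 25.5% ± 6.01 (SD, n = 2) and 19.3% ± 0.610 (SD, n = 3), with p = 0.2 in a two-sided exact permutation test, which cannot go lower with 2 samples against 3. Intervals cover counting error only.

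The share of C1qb was 42.0% in PBS replicate 1 and between 50.0% and 51.4% in the other libraries. PBS replicate 1 was again the library that stood apart. C1qc held 28.3% and 27.4% of the UMIs with PBS and 29.7%, 30.2% and 30.4% with Sema3G, higher in 3 of 3 Sema3G libraries (group means 27.8% ± 0.647, n = 2, and 30.1% ± 0.366, n = 3, exact two-sided permutation p = 0.2). The ratio of C1qb to C1qc stayed between 1.48 and 1.88 over the 5 libraries. The ratio of C1qa to C1qb was 0.708 and 0.413 with PBS and 0.388, 0.362 and 0.391 with Sema3G.

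**Figure D2:**
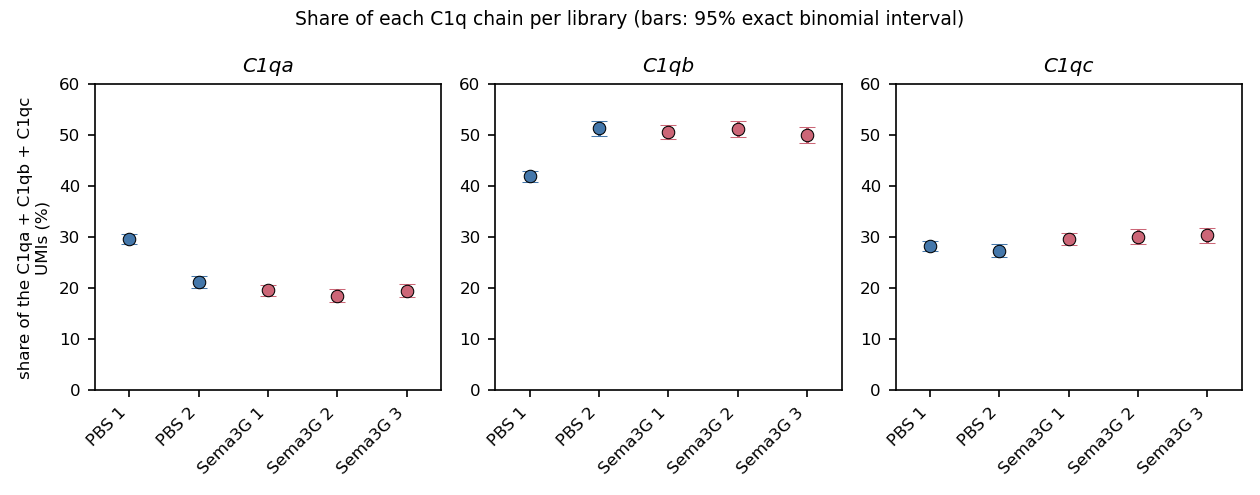
Share of C1qa, C1qb and C1qc in their summed UMIs, in percent, for each library, with PBS in blue and Sema3G in red. Bars are 95% exact binomial intervals. PBS replicate 1 stands apart with 29.7% C1qa and 42.0% C1qb, while the other 4 libraries hold 18.6% to 21.2% C1qa and 50.0% to 51.4% C1qb.

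C3, which encodes the central component, followed another course. It was at 391 and 594 CPM with PBS and at 311, 379 and 335 CPM with Sema3G. Here PBS replicate 2 was the high library, 1.52-fold above PBS replicate 1, while for C1qa it was the lower of the pair. C3 was the only one of the 9 genes whose groups did not overlap, although the gap between PBS replicate 1 and Sema3G replicate 2 was small. Of all genes tested, 26.5% had all Sema3G libraries below both PBS libraries and 11.9% had them above. The means were 492 ± 144 CPM (SD, n = 2) and 342 ± 34.4 CPM (SD, n = 3), with a log2 fold change of -0.50 (standard error 0.21, 95% interval -0.93 to -0.07, limma, adjusted p = 0.184). Against the all-gene median it was -0.27. It was -0.80 without PBS replicate 1 and -0.20 without PBS replicate 2, where the median of all genes was -0.30.

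Cfb, which encodes the protease of the alternative pathway enzyme, was at 158 and 101 CPM with PBS and at 125, 81.2 and 57.2 CPM with Sema3G. Sema3G replicates 2 and 3 were below both PBS libraries, and Sema3G replicate 1 was between them. Its log2 fold change was -0.59 (standard error 0.27, limma, adjusted p = 0.216), or -0.37 against the all-gene median. It was -0.27 without PBS replicate 1 and -0.91 without PBS replicate 2. Without Sema3G replicate 1 it was -0.88 (limma, adjusted p = 0.0364), in the fit with 303 higher and 553 lower calls. C3 and Cfb did not keep a fixed ratio, which was 2.48 and 5.90 with PBS and 2.50, 4.67 and 5.85 with Sema3G. The ratio thus varied nearly as much within each group as over all libraries.

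Cfp, which encodes properdin, was at 1066 and 951 CPM with PBS and at 976, 701 and 661 CPM with Sema3G, so Sema3G replicate 1 lay between the PBS libraries. It was far more abundant than Cfb, at a mean of 871 CPM over the 5 libraries against 104 CPM. The log2 fold change was -0.39 (standard error 0.22, 95% interval -0.85 to 0.07, limma, adjusted p = 0.308), or -0.17 against the all-gene median.

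**Figure D3:**
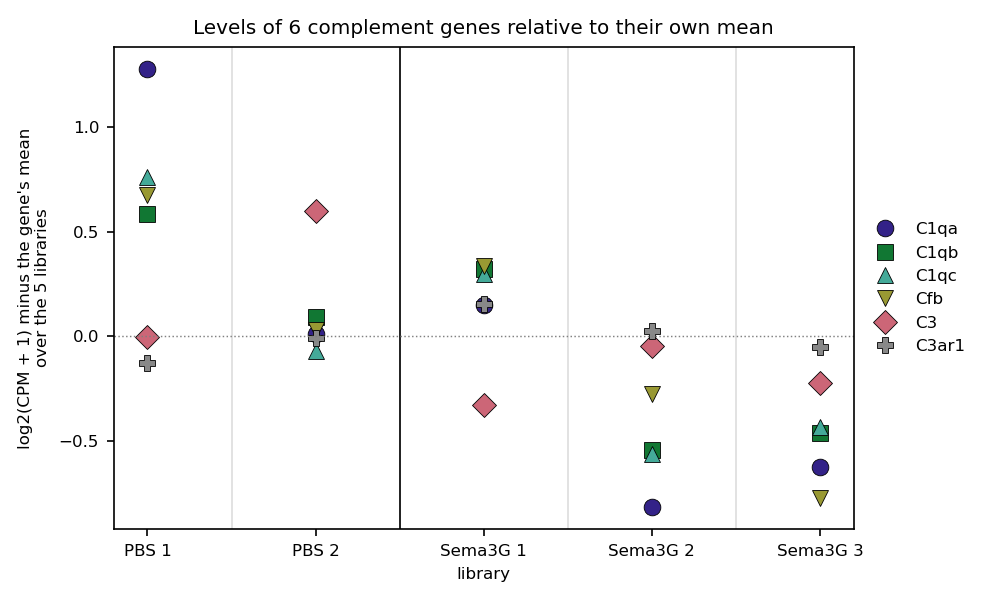
Level of 6 complement genes in each library, as log2(CPM + 1) minus the mean of the same gene over the 5 libraries. The C1q genes and Cfb are highest in PBS replicate 1 and lowest in Sema3G replicates 2 and 3, C3 is highest in PBS replicate 2, and C3ar1 varies least.

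C3ar1, the receptor for C3a, had the smallest difference between its highest and lowest library among the 9 genes on the log2 scale. It was at 1020 and 1108 CPM with PBS and at 1241, 1135 and 1074 CPM with Sema3G. The groups overlapped, with Sema3G replicate 3 below PBS replicate 2. The log2 fold change was 0.11 (standard error 0.21, 95% interval -0.33 to 0.55, limma, adjusted p = 0.784), or 0.34 above the median of all genes. After rescaling by TMM factors it was 0.33 (limma, adjusted p = 0.385). The ratio of C3ar1 to C3 in CPM was 2.61 and 1.87 with PBS and 3.99, 2.99 and 3.21 with Sema3G, with no overlap between the groups.

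The receptors for C5a were less abundant. C5ar1, which mediates most known cell responses to C5a, was at 169 and 119 CPM with PBS and at 128, 106 and 102 CPM with Sema3G. Sema3G replicate 1 lay above PBS replicate 2, so the groups overlapped. The log2 fold change was -0.35 (standard error 0.20, 95% interval -0.77 to 0.08, limma, adjusted p = 0.326), or -0.12 against the all-gene median. Leaving out PBS replicate 1 gave -0.10, slightly above the median of all genes in that fit (-0.13), and leaving out PBS replicate 2 gave -0.59. The ratio of C3ar1 to C5ar1 was 6.05 and 9.28 with PBS and 9.70, 10.7 and 10.5 with Sema3G.

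C5ar2, a C5a receptor that does not couple to G proteins, had 27 and 11 UMIs with PBS and 16, 10 and 14 UMIs with Sema3G. These correspond to 14.8 and 5.89 CPM against 8.90, 4.51 and 6.45 CPM, all above the 1.35 to 1.67 CPM that 3 counts are worth in these libraries. PBS replicate 1 was above all others and the rest overlapped. The log2 fold change was -0.50, or -0.27 against the all-gene median, with a wide 95% interval of -1.37 to 0.38 (limma, adjusted p = 0.494). It was 0.11 without PBS replicate 1 and -1.10 without PBS replicate 2.

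**Figure D4:**
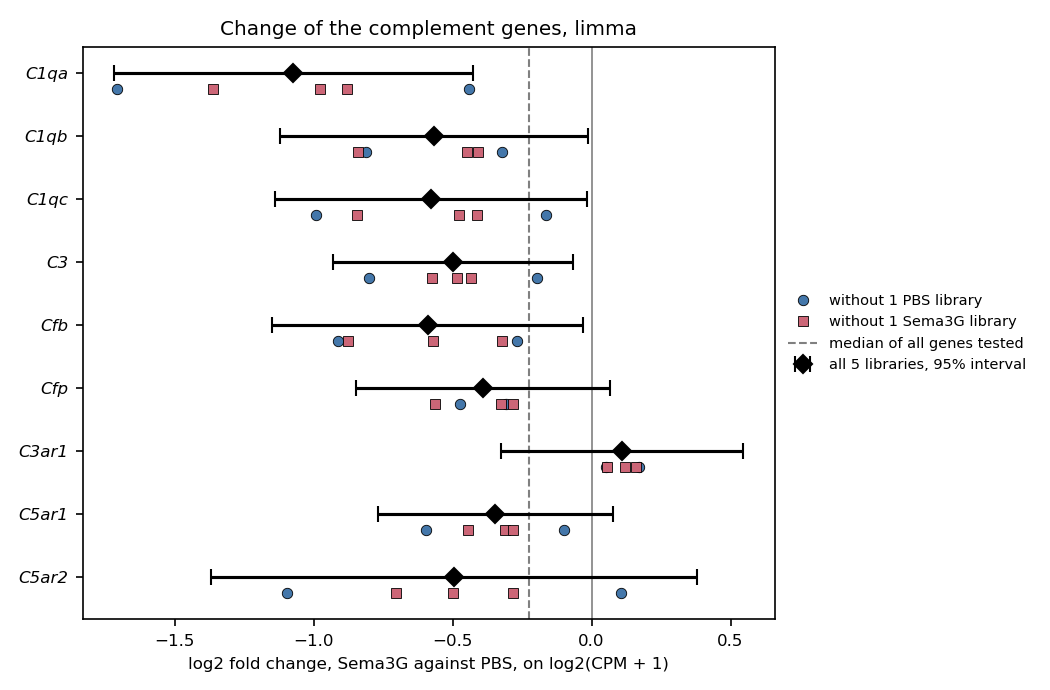
Log2 fold change of Sema3G against PBS for each complement gene. Black diamonds with bars are limma's estimate from all 5 libraries with its 95% interval, blue circles leave out 1 PBS library, red squares leave out 1 Sema3G library, and the dashed line is the median of all genes tested at -0.22. C1qa has the lowest estimate at -1.07, ranging from -1.71 to -0.44 with 1 library left out, and C3ar1 has the only estimate above 0.

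By mean CPM over the 5 libraries the order was C1qb (1284), C3ar1 (1115), Cfp (871), C1qc (775), C1qa (618), C3 (402), C5ar1 (125), Cfb (104) and C5ar2 (8.12). The step from C3 to C5ar1 and that from Cfb to C5ar2 were larger than the spread, with ranges over the libraries that did not overlap. The ranges of all other neighbours overlapped. C5ar1 nevertheless exceeded Cfb in 5 of 5 libraries, and C3ar1 exceeded Cfp, Cfp exceeded C1qc and C1qc exceeded C1qa in 4 of 5. C1qb exceeded C3ar1, and C1qa exceeded C3, in 3 of 5 libraries.

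Of 2241 genes that were not members and had a mean of at least 50 CPM, those whose course across the 5 libraries was most like the mean of the C1q genes were Pomp, Tlr7, Nme2, Rps18 and Lgmn. Likeness was the root mean square difference of centred log2(CPM + 1), which was 0.0764 for Pomp, a proteasome assembly factor, 0.0768 for Tlr7, an endosomal receptor of single-stranded RNA, and 0.0989 for Lgmn, a lysosomal protease. For comparison it was 0.0807 for C1qc itself, 0.146 for C1qb and 0.209 for C1qa, and the median over the candidates was 0.432. Tlr7 was at 98.9 and 59.4 CPM with PBS and at 67.8, 38.4 and 43.8 CPM with Sema3G, the same order of libraries as C1qb and C1qc. The genes most like C3 were Ccl9, a chemokine, at a difference of 0.0738, Slc2a1, a glucose transporter, at 0.0783 and Gys1, a glycogen synthase, at 0.0804. Ccl9 was at 1032 and 1614 CPM with PBS and at 928, 1140 and 974 CPM with Sema3G, highest in PBS replicate 2 like C3. These are descriptions over 5 libraries, and the total and Rn45s share of a library enter the values of every gene in it.

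The wider complement system was covered by a list of 45 other genes. Of these, 18 had a mean of at least 1 CPM, 27 did not, and 20 of those were at 0 in all libraries. Of all 24419 genes, 10088 had such a mean and 11627 were at 0 in all libraries. The 18 tested genes held the C1r protease gene C1ra, soluble and membrane regulators, receptors and C1q-binding proteins. C2, C4a and C4b had at most 1.11 CPM in any library, which is under the worth of 3 counts. None of the 18 passed an adjusted p of 0.05 in limma, beside the 1.59% higher and 0.218% lower over all genes. In limma 1 gene, Lrp1, had an unadjusted p under 0.05, beside 6.83% higher and 14.2% lower over all genes. edgeR's quasi-likelihood test called none of 11 it could test, beside 4.67% over all genes. It had 2 genes, Itgam among them, at an unadjusted p under 0.05, beside 13.6% higher and 4.19% lower over all genes. DESeq2 called none, beside 2.77% over all genes. It had Itgam alone at an unadjusted p under 0.05, beside 754 higher and 171 lower genes over all. The median log2 fold change of the 18 was -0.17, beside -0.22 over all genes, and 12 were below 0, beside 67.5% of all genes. After rescaling by TMM factors the median of the 18 was 0.04, so its sign depends on the scaling.

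Groups did not overlap for 4 of the 18, with 2 lower and 2 higher, beside 26.5% lower and 11.9% higher over all genes tested. Lrp1, a large endocytic receptor that takes up many ligands, was at 331 and 337 CPM with PBS and at 231, 217 and 240 CPM with Sema3G. The spread within its groups was small, and the log2 fold change was -0.54 (standard error 0.18, limma, adjusted p = 0.115), or -0.32 against the all-gene median. Itgam, the alpha chain of complement receptor CR3, was at 703 and 593 CPM with PBS and at 721, 726 and 788 CPM with Sema3G (log2 fold change 0.21, or 0.43 above the median of all genes, limma, adjusted p = 0.552). That of Itgam was 0.33 without PBS replicate 1 and 0.08 without PBS replicate 2. Itgax, the alpha chain of complement receptor CR4, was at 3.85 and 4.28 CPM with PBS and at 1.67, 3.61 and 0.461 CPM with Sema3G, close to the worth of 3 counts.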

How the data were processed

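RNA from 5 samples was analysed, 2 PBS and 3 Sema3G, grouped by the treatment label. Per the study's methods, QuantSeq 3′ libraries with UMIs were mapped to mm10, counted per gene with Strand NGS and normalized with edgeR (3.12 in the submitters' processing notes), and the authors deposited CPM values, with a gene annotation and filters not given in the sources used here. Columns of the authors' own comparison (p-values, q-values and a rank) were not used.

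Each CPM value was within 0.01 of a whole multiple of 1 step per library for 100% of values, which gave UMI counts and library totals of 1798469 to 2215855. Genes averaging 1 CPM or more (10088) were tested on log2(CPM + 1) by limma (3.58.1, under R 4.3.3, trend option), and p-values were adjusted by the Benjamini-Hochberg method. A fold change on this scale understates that of low genes. Alternatives were edgeR (4.0.16, TMM factors, filterByExpr) and DESeq2 (1.42.0) on these counts, other pseudocounts (0.1 and 5), filters, scalings, a replicate block and leaving out each library. limma was planned for CPM and the fits were tested on simulated data. Sema3G replicates 2 and 3 were the most similar libraries, at a chi-square of 1.77 per degree of freedom over 7918 genes, beyond sampling noise, and were counted separately. The other pairs had 6.57 to 29.6.

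The members, the gene lists and the rules for naming genes were chosen with earlier results of these data known. Named are the members, listed complement genes past the adjusted p or without overlap between groups, and the genes most like C1q and C3 in course. Promoter windows came from RefSeq and positions from GENCODE M21. C2, C4a, C4b and C1ra were named after their values were seen. The values of 1 listed gene whose groups did not overlap are not reported here.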

Additional observations from a re-analysis of the deposited data

How the results depend on the processing

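The 9 complement genes were refitted under 14 alternatives, 126 fits in all. Of these fits, 6 passed the adjusted p limit (C1qa in 3 and C1qb, C1qc and Cfb in 1 each) and 1 turned direction against 0. Against the all-gene median of the same fit, C3 without PBS replicate 2 and C5ar1 and C5ar2 without PBS replicate 1 turned to above it. C5ar2 turned to 0.11 without PBS replicate 1, from a range of -1.10 to 0.11 with 1 library left out. With 1 library left out, C1qa ranged from -1.71 to -0.44, C1qb from -0.84 to -0.32, C1qc from -0.99 to -0.16, Cfb from -0.91 to -0.27, C3 from -0.80 to -0.20, C5ar1 from -0.59 to -0.10, Cfp from -0.56 to -0.28 and C3ar1 from 0.05 to 0.17. A lone remaining PBS library was taken to have the same spread as the Sema3G group. Without Sema3G replicate 1, C1qa, C1qb, C1qc and Cfb were past the limit together, in a fit that called 303 higher and 553 lower genes.

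Same-numbered libraries had correlated deviations from their group means (0.173 and 0.111 over 10088 genes), against -0.111 and -0.0973 for PBS replicate 1 with Sema3G replicates 2 and 3. With 2 PBS libraries the deviations of one mirror those of the other, so PBS replicate 2 was about as close to Sema3G replicate 3 as to replicate 2. The labels do not say that a number marks a shared culture, so they were not treated as pairs. The replicate block leaves 1 residual degree of freedom and gives no weight to Sema3G replicate 3. In that fit limma took the spread from its trend over all genes. The p-values therefore do not measure the spread of the gene itself between libraries. With the block, C1qa was -0.98 (adjusted p = 4.36e-06 from limma). Lrp1, 1 of the 18 other complement genes, was -0.58 (adjusted p = 0.0189 from limma). Both were past the limit, and the calls over all genes were 298 higher and 275 lower.

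The 160 higher and 22 lower genes of the table as a whole were 104 and 4 with no filter, 348 and 3 with TMM scaling, 481 and 1 with CPM over listed genes other than Rn45s, and 380 and 3 with edgeR. The lower genes were 5 with a pseudocount of 0.1 and 1 with DESeq2. Leaving out 1 library gave 26 (without Sema3G replicate 2) to 303 higher genes and 0 (without Sema3G replicate 2 or 3) to 553 lower genes, with 28 higher without Sema3G replicate 3, and 83 higher and 9 lower without PBS replicate 1. The cause of these differences was not tested. The shares of the C1q chains are the same from CPM as from counts by construction. C5ar2 had the fewest molecules of the 9 genes, with 10 to 27 UMIs per library.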
